A study of Mus musculus with 3 samples.

Results

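The pro-death members of the BCL2 family were followed in RAW 264.7 cells, a mouse macrophage line from a tumor induced by Abelson murine leukemia virus. They are 8 BH3-only genes and 2 effectors, taken by symbol from a family list that no measured value enters, although earlier results of these data were known. All 10 were present among the 46078 genes of the deposited table. The 3 libraries were 1 of cells given 0.5 mM hydroxyurea (HU) together with gold nanocages, 1 of cells given 0.5 mM HU alone, and 1 of control cells. All were cultures of the same line at passage 10 to 15 in medium with 10% serum, and RNA was taken after 12 hours. How much nanocage material was added is not given in the sources used here, and nanocages without HU were not analysed here.

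BCL2 family proteins decide whether the outer mitochondrial membrane stays intact. The effectors BAX and BAK form pores in that membrane, which release cytochrome c and start the caspase cascade. BH3-only proteins trigger the effectors directly or by occupying pro-survival relatives such as BCL-2, BCL-XL and MCL-1. HU blocks ribonucleotide reductase, so replication forks stall and damage signalling reaches p53, the factor that drives the genes of the BH3-only proteins PUMA and NOXA.

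The summed counts were 18644333 in HU plus gold nanocages, 20057329 in HU and 14990564 in control. With 1 library per condition no difference below has a replicate check, and no p-value was computed. Ratios are of CPM, the count scaled to the summed count of its library, with exact (Clopper-Pearson) 95% intervals. These cover counting error only, since they use just the counts of 1 library per condition. The reads carry no molecular identifiers, so copies of 1 molecule could not be told apart from separate molecules. In bulk RNA, fewer cells that transcribe a gene and less RNA of it per cell cannot be told apart. The line matched its label, with 9 of 10 macrophage markers at 1 FPKM or more in every library. FPKM are the same scaled counts per kilobase of exonic gene size. Those markers summed to 2808, 2935 and 3063 FPKM in HU plus gold nanocages, HU and control, and Mrc1 had no reads. Lyz2, Cd68 and Csf1r were at 1283, 565.0 and 261.3 FPKM with nanocages, 1360, 553.3 and 272.1 FPKM in HU, and 1452, 562.8 and 293.9 FPKM in control. None of the 22 markers of lymphocytes, granulocytes and mast cells, fibroblasts or epithelium reached 1 FPKM in any library.

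The upstream sequences of Bbc3, Bcl2l11 and Bax are shown because 2 of these genes were among the 3 with the highest ratios in HU, and all 3 are known targets of p53 or FOXO factors. They are from RefSeq on GRCm38.p6, the assembly of mm10, 5′ to 3′ along the gene. RefSeq windows were found for 8 of the 10 members. Pmaip1 and Bik had none, so neither was part of the motif searches below. In the window that ends just before the first Bbc3 start site (chr7:16309333-16309582, plus strand) capitals mark a pair of quartets that the p53 search below picked out:

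Bbc3, first start site: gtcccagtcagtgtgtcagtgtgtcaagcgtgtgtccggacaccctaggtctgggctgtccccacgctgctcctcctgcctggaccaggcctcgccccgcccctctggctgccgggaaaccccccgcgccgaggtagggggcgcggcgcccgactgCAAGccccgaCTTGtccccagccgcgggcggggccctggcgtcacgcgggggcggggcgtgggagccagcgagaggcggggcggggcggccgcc

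In the next Bbc3 window (chr7:16310061-16310140, plus strand) and in the Bcl2l11 window (chr2:128125788-128125867, plus strand) capitals mark the FOXO motif TGTTTAC or its reverse complement GTAAACA:

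Bbc3, second start site: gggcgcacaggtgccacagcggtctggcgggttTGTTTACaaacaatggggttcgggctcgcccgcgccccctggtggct
Bcl2l11, first start site: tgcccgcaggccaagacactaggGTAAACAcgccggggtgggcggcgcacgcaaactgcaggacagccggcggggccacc

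In the Bax window (chr7:45467060-45467139, minus strand) capitals mark the 20 bases nearest to the p53 consensus:

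Bax: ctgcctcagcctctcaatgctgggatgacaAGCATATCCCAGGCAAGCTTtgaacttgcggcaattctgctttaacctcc

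The p53 search asked for 2 core quartets, each a C and a G around a pair of A or T bases, 6 bases apart, within 250 bases before a start site. Both strands were read, and the pair is its own reverse complement. It was found in 1 of 14 member windows, at bases -94 to -81 of Bbc3, and in 5.84% of all 32851 windows. Against the full p53 consensus of 20 positions without a spacer, the first Bbc3 window matched 17 at best, and so did the Bax window. At least 17 positions matched in 5.32% of all windows. The other 12 member windows matched 12 to 16 positions. The FOXO letters were found in 2 of 14 member windows, Bbc3 and Bcl2l11, and in 3.17% of all windows. These matches describe only the letters in the windows, and binding was not measured.

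HU against control addressed which death genes differ in cells given the drug, and replication itself was not measured. The BH3-only genes Bbc3, Pmaip1 and Bcl2l11 were higher in HU, and the other members differed less. Among the 8 members with at least 1 FPKM in either library, 2 were at least 2-fold higher and 0 at least 2-fold lower. Over all 11159 genes tested these shares were 2.8% and 1.78%. By the counting interval, 5 of the 8 were above and 2 below a ratio of 1, beside 18.5% and 19.8% of all genes. Counting intervals narrow as reads rise, and these shares, here and below, were not matched for read number. The median log2 ratio of the 8 was 0.32, beside -0.01 over all genes tested.

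Bbc3 encodes PUMA, a BH3-only protein that binds all the main pro-survival relatives and is a direct target of p53. The gene occupies chromosome 7, 16308393 to 16318205 of mm10, on the plus strand. It had 2463 reads (65.8 FPKM) in HU plus gold nanocages, 2645 reads (65.7 FPKM) in HU and 330 reads (10.96 FPKM) in control. Both HU libraries were high and nearly equal, and control was far below them. The CPM ratio was 5.99 in HU against control (5.34 to 6.74). Among 9658 protein-coding genes tested, 20 had a ratio as high as that of Bbc3 or higher, Bbc3 included. Among all 11159 genes tested Bbc3 ranked 78 from the top. Its level stood at percentile 91.4 of the genes at 1 FPKM or more in HU, against percentile 50.7 in control.

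Pmaip1 encodes NOXA, a BH3-only protein that mainly neutralises MCL-1, and is likewise a p53 target. The gene occupies chromosome 18, 66458533 to 66465565. It had 3266 reads (66.2 FPKM) with HU plus gold nanocages, 3126 reads (58.9 FPKM) with HU and 1119 reads (28.2 FPKM) in control. The library with nanocages was the highest, HU was next and control was lowest. The CPM ratio of HU over control was 2.09 (1.95 to 2.24), so its interval reached below 2. With a pseudocount of 5 FPKM the log2 ratio was 0.94, short of 2-fold.

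Bcl2l11 encodes BIM, a strong direct activator of BAX and BAK, whose gene FOXO factors induce. It lies on chromosome 2 at 128126038 to 128162547. It had 1046 reads (6.99 FPKM) in HU plus gold nanocages, 1102 reads (6.84 FPKM) in HU and 514 reads (4.27 FPKM) in control. Both HU libraries were above control, at a much lower level than Bbc3. The CPM ratio of HU over control was 1.60 (1.44 to 1.78), and it ranked 512 from the top among 11159 genes tested. At 1.5-fold, which 5.43% of those genes reached, it was 1 of 3 members that were higher, with Bbc3 and Pmaip1.

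Bid, on chromosome 6 at 120891930 to 120916853, encodes the BH3-only protein that caspase-8 cleaves to link death receptors to mitochondria. It had 3380 reads (51.1 FPKM) in HU plus gold nanocages, 3600 reads (50.6 FPKM) in HU and 3177 reads (59.7 FPKM) in control. Control was the highest per length although it had the fewest reads, since its library was the smallest. The CPM ratio was 0.847 in HU against control (0.807 to 0.889). Its exons share 628 bases with Bcl2l13 on the opposite strand, which had 1520, 1693 and 1374 reads in the same order of libraries. Whether strand was used in counting is unknown, and so is how reads of the shared bases were assigned or left out.

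Bad encodes a BH3-only protein that survival kinases such as AKT hold inactive on 14-3-3 proteins. It lies on chromosome 19 at 6941861 to 6951899. It had 308 reads (8.23 FPKM) in HU plus gold nanocages, 387 reads (9.61 FPKM) in HU and 230 reads (7.64 FPKM) in control. HU alone was the highest of the 3. The CPM ratio of HU over control was 1.26 (1.07 to 1.49), while the library with nanocages lay close to control at 1.08 (0.905 to 1.28). Its exons share 524 bases with Gpr137 on the opposite strand, which had 219, 285 and 194 reads in the same order of libraries. These reads are not scaled to the summed counts, which were highest in HU.

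Bmf, on chromosome 2 at 118528757 to 118549687, encodes a BH3-only protein tied to the cytoskeleton through a dynein light chain. It had 270 reads (2.76 FPKM) in HU plus gold nanocages, 365 reads (3.46 FPKM) in HU and 261 reads (3.31 FPKM) in control. The HU and control levels were close, and their ratio of 1.04 had an interval of 0.889 to 1.23. Per length, Bmf was the lowest of the members that were detected beyond single reads.

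Bik and Hrk were the members without measurable transcripts. Bik, which encodes a BH3-only protein of the endoplasmic reticulum, had 0 reads in HU plus gold nanocages, 1 read in HU and 0 reads in control. Hrk, which encodes a BH3-only protein best known from neurons, had 0 reads in all 3 libraries. A count of 0 allows up to 3 counts (a one-sided limit at 95%), or 0.0283, 0.0263 and 0.0353 FPKM for Hrk with nanocages, in HU and in control. The same limit for Bik was 0.171 FPKM with nanocages and 0.212 FPKM in control. No ratio is given for them.

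Bax, on chromosome 7 at 45461697 to 45466898, encodes the effector that moves from the cytosol to mitochondria upon activation. It had 3710 reads (229.0 FPKM) in HU plus gold nanocages, 4281 reads (245.6 FPKM) in HU and 2565 reads (196.9 FPKM) in control. HU was highest, the library with nanocages lay between and control was lowest. The CPM ratio of HU over control was 1.25 (1.19 to 1.31), and 866 of 9658 protein-coding genes had one at least as high. Among all 11159 genes tested Bax ranked 1289 from the top. Its exons share 192 bases with Gm45808 on the same strand.

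Bak1 encodes BAK, the effector that sits in the outer mitochondrial membrane, on chromosome 17 at 27019810 to 27029009. It had 3369 reads (75.1 FPKM) in HU plus gold nanocages, 3494 reads (72.4 FPKM) in HU and 2822 reads (78.2 FPKM) in control. The 3 levels were close, with control highest. The CPM ratio of HU over control was 0.925 (0.880 to 0.973). Its exons share 437 bases with Ggnbp1 on the opposite strand, which had 61, 68 and 67 reads in the same order of libraries.

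**Figure D1:**
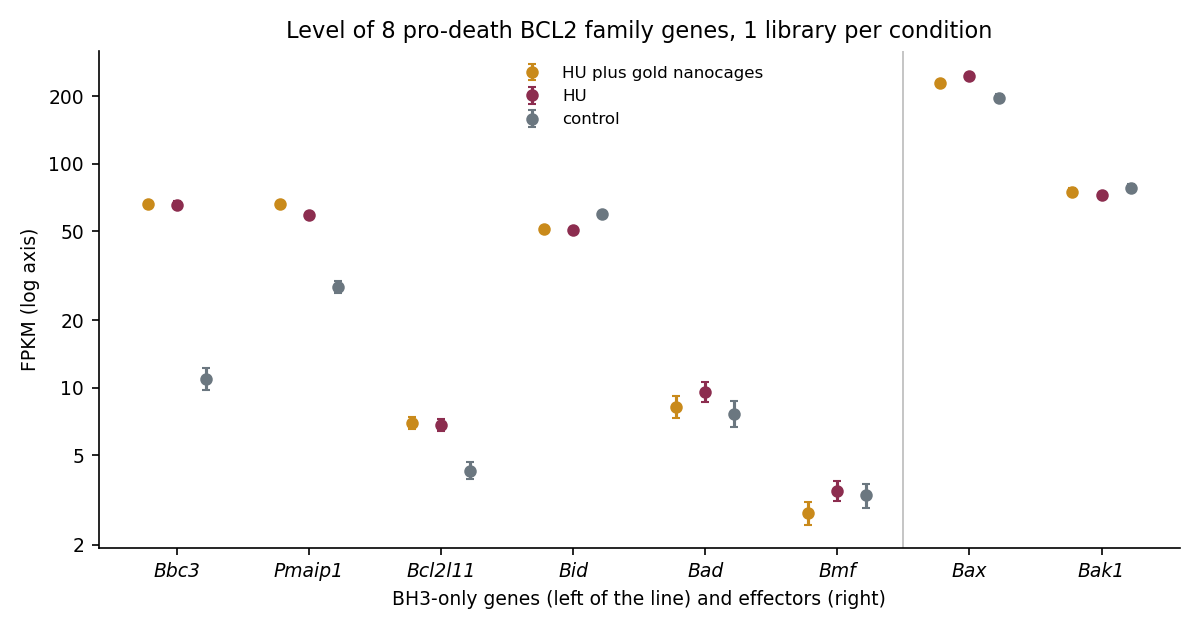
Level of 8 pro-death BCL2 family genes in FPKM on a log axis, with 1 point per library and bars for exact Poisson 95% counting intervals. Bbc3 and Pmaip1 are at 65.8 and 66.2 FPKM in HU plus gold nanocages and 65.7 and 58.9 FPKM in HU. In control they are at 10.96 and 28.2 FPKM. The 3 points of Bid, Bax and Bak1 lie closer together, although their HU and control bars do not overlap. Bik and Hrk are not drawn because they had at most 1 read.

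In the deposited annotation, 3 members carry the term of intrinsic apoptotic signalling by p53, namely Bbc3, Pmaip1 and Bax. Their HU over control ratios were 5.99, 2.09 and 1.25, so the members that share this term were spread widely. Of the 5 measured members without the term, Bcl2l11 had the highest ratio.

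The order of the levels per length shifted within the BH3-only genes. By FPKM the order in HU plus gold nanocages was Bax, Bak1, Pmaip1, Bbc3, Bid, Bad, Bcl2l11 and Bmf. In HU it was Bax, Bak1, Bbc3, Pmaip1, Bid, Bad, Bcl2l11 and Bmf. In control it was Bax, Bak1, Bid, Pmaip1, Bbc3, Bad, Bcl2l11 and Bmf. All neighbours in these orders had counting intervals that were apart, with the exception of Pmaip1 and Bbc3, and of Bad and Bcl2l11, in the library with nanocages. The level of Bax depends on its exonic size, 869 bases in the deposited table. With the 1576 exonic bases of the Bax gene in GENCODE M21, Bax was at 126.3, 135.4 and 108.6 FPKM in the same order of libraries and still first. Under those sizes Bad and Bcl2l11 changed places in the library with nanocages, and no other member moved.

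The summed FPKM of the 8 BH3-only genes was 201.0 in HU plus gold nanocages, 195.1 in HU and 114.1 in control. Bbc3 held 32.7% and 33.7% of that sum in the HU libraries with and without nanocages, against 9.61% in control. Bid held 25.4% and 25.9% in the same HU libraries, against 52.3% in control. Bbc3 alone made up 67.5% of the difference in the sum between HU and control. The summed FPKM of Bax and Bak1 was 304.1 with nanocages, 318.0 in HU and 275.1 in control, a ratio of 1.16 for HU over control, beside 1.71 for the BH3-only genes.

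**Figure D2:**
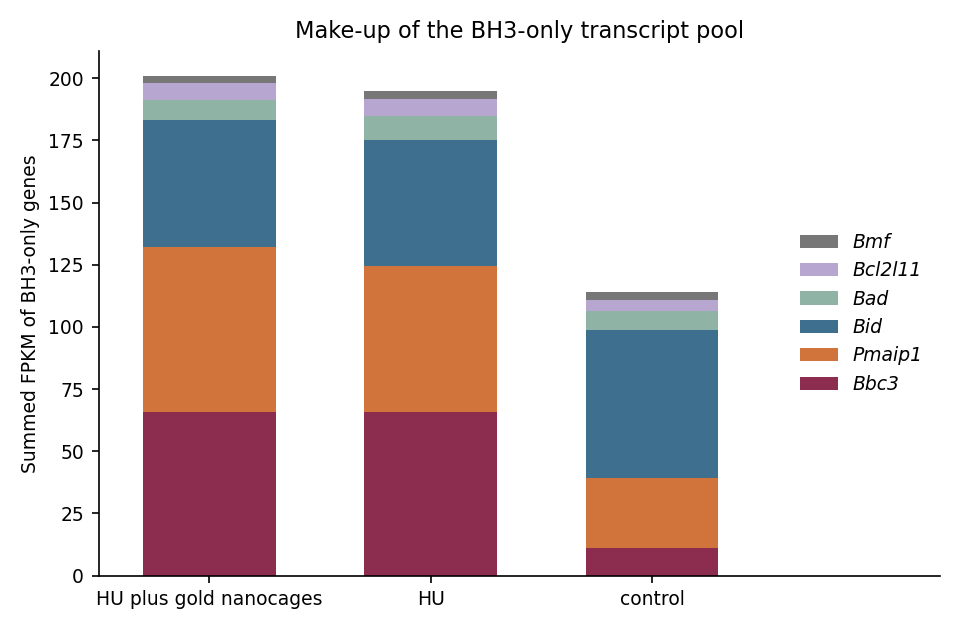
Summed FPKM of the BH3-only genes in each library, stacked by gene (Bik and Hrk add at most 0.05 FPKM and are not drawn). The sum is 201.0 with HU plus gold nanocages, 195.1 with HU and 114.1 in control, and Bid is the largest part in control, at 52.3%.

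HU plus gold nanocages against HU addressed whether nanocages given with the drug shift the death genes. Bbc3 hardly differed between these libraries, Pmaip1 was slightly higher with nanocages, and Bmf, Bad and Bax were slightly lower. Of 8 members tested, 0 were at least 2-fold higher and 0 at least 2-fold lower, beside 1.16% and 1.21% of 11142 genes. By the counting interval, 1 of 8 was above and 3 of 8 were below a ratio of 1, beside 8.32% and 7.69% of all genes. The median log2 ratio of the members was 0.01, beside 0.00 over all genes tested.

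Pmaip1, the NOXA gene, had a CPM ratio of 1.12 (1.07 to 1.18) with nanocages over HU. It thus lay further from control in the library with nanocages, at 2.35 (2.19 to 2.51), than in HU alone. Bmf had a ratio of 0.796 (0.677 to 0.934), the lowest of the members, and Bad one of 0.856 (0.735 to 0.997). Bax, at 0.932 (0.892 to 0.974), was lower by 16.6 FPKM than the 245.6 FPKM of HU. Against control, Bax in the library with nanocages had a ratio of 1.16 (1.11 to 1.22).

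The intervals of the other 4 measured members included 1. They were 0.948 to 1.06 for Bbc3, 0.937 to 1.11 for Bcl2l11, 0.963 to 1.06 for Bid and 0.989 to 1.09 for Bak1. At this depth no difference of these 4 was detectable, and the spread between cultures is unknown.

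**Figure D3:**
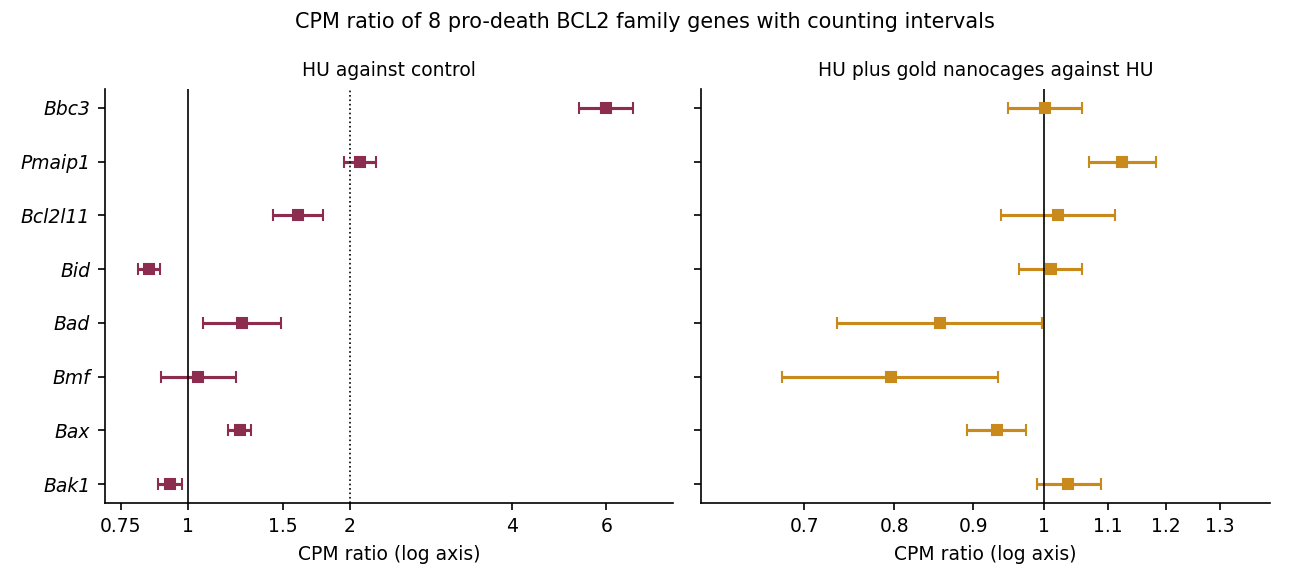
CPM ratio of 8 members on log axes, for HU against control (left) and HU plus gold nanocages against HU (right), with exact 95% counting intervals. The solid line marks a ratio of 1 and the dotted line 2. On the left Bbc3 stands at 5.99, and on the right the ratios run between 0.796 for Bmf and 1.12 for Pmaip1, with the axis stretched.

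HU plus gold nanocages against control shares its control library with the comparison of HU against control. In it, 2 of 8 members, Bbc3 and Pmaip1, were at least 2-fold higher, beside 2.94% of 11167 genes, and 0 were at least 2-fold lower, beside 1.83%. The CPM ratio of Bbc3 was 6.001 (5.35 to 6.75) with nanocages over control. Bcl2l11 had a ratio of 1.64 (1.47 to 1.82), Bid one of 0.855 (0.815 to 0.898) and Bmf one of 0.832 (0.699 to 0.990). By the counting interval 4 of 8 were above and 2 of 8 below 1, beside 19.4% and 19.8% of all genes.

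The pro-survival relatives, which bind and restrain these death proteins, were close to control in HU. Of 8 on the list, 5 had at least 1 FPKM in HU or control, with a median log2 ratio of -0.14. Of these, 1 was above and 1 below counting error, shares near the 18.5% and 19.8% of all genes. Bcl2l1, which encodes BCL-XL, was at 23.4 FPKM in HU and 18.6 FPKM in control (1.26-fold, 1.18 to 1.35). Bcl2l2, which encodes BCL-W, was at 3.45 FPKM in HU and 4.74 FPKM in control (0.729-fold, 0.621 to 0.855). Bcl2a1b and Bcl2a1d, near-identical copies whose reads may be split, had ratios of 0.855 (0.6995 to 1.04) and 0.906 (0.811 to 1.01). With HU plus gold nanocages against HU, 1 of 6 was above and 1 below counting error, beside 8.32% and 7.69% of all genes. The added gene, Bcl2, passed the minimum only through the library with nanocages, at 1.13 FPKM against 0.97 FPKM in HU. The summed FPKM of the BH3-only genes over that of the pro-survival genes was 0.547 with nanocages, 0.596 in HU and 0.341 in control. Mcl1, the most abundant pro-survival gene per length and the main partner of NOXA, was named after its values were seen. It was at 280.9 FPKM with nanocages, 245.0 FPKM in HU and 249.4 FPKM in control. With nanocages over HU, Mcl1 was the 1 gene above counting error, at 1.15 (1.12 to 1.17). Bcl2l1 was the 1 below, at 0.939 (0.882 to 0.999). The pro-survival sum was higher by 40.0 FPKM with nanocages than in HU, and Mcl1 made up most of that difference.

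Transcription factors known to act on the members differed in both directions. Of 9, 7 were measured, and in HU against control 2 were at least 2-fold higher and 0 lower, beside 2.8% and 1.78% of all genes. Jun, which encodes a stress-activated AP-1 subunit linked to BIM induction in rat neurons, was at 62.9 FPKM in HU and 22.1 FPKM in control (2.85-fold, 2.66 to 3.05). Foxo3, an activator of Bcl2l11 and Bbc3, was at 22.5 FPKM in HU and 8.69 FPKM in control (2.59-fold, 2.41 to 2.78). Ddit3, which encodes CHOP, an inducer of BIM under endoplasmic reticulum stress, was at 8.09 FPKM in HU and 14.4 FPKM in control (0.563-fold, 0.480 to 0.660). Myc was at 23.8 FPKM in HU and 36.4 FPKM in control (0.654-fold, 0.607 to 0.704). With nanocages against HU, 0 of the 7 were above and 2 below counting error, beside 8.32% and 7.69% of all genes. The lower ones were Jun, at 0.919 (0.878 to 0.962), and Trp53, at 0.961 (0.926 to 0.998), while Foxo3 had a ratio of 0.993 (0.945 to 1.04). Trp53, named after its values were seen, was at 70.0 FPKM with nanocages, 72.8 FPKM in HU and 73.5 FPKM in control.

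The reference list of 13 p53 targets holds no member and was chosen with earlier results of these data known. It had 12 measured genes in HU against control. Of these, 11 were at least 2-fold higher, beside 2.8% of all genes, and the median log2 ratio was 1.92. The exception was Sesn1, a sestrin gene named after its values were seen, with a CPM ratio of 0.869 (0.791 to 0.955). Trp53inp1 and Phlda3 were highest, at log2 ratios of 5.78 and 5.13, followed by Mdm2 and Cdkn1a at 2.72 and 2.71. Bbc3, at 2.58, thus lay below these 4 and above the other measured targets. Its ratio interval of 5.34 to 6.74 overlapped those of Mdm2 (6.29 to 6.91) and Cdkn1a (6.25 to 6.84). Pmaip1, at 1.06, lay near Aen and Ei24 (1.05 for both, chosen after their values were seen).

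Downstream of the mitochondria, the 11 genes of release and the apoptosome had 3 above and 4 below counting error in HU against control, beside 18.5% and 19.8% of all genes. Their median log2 ratio was -0.02. Apaf1, the scaffold of the apoptosome, was at 11.9 FPKM in HU and 7.42 FPKM in control (1.60-fold, 1.49 to 1.73). Xiap, a caspase inhibitor, had a ratio of 0.827 (0.782 to 0.875). With nanocages against HU, 1 of the 11 was above and 0 below counting error, beside 8.32% and 7.69% of all genes.

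Among 16 measured genes for protein partners of the members, 6 were above and 6 below counting error in HU against control, beside 18.5% and 19.8% of all genes, and 0 were 2-fold apart. The dynein light chain genes Dynll2 and Dynll1, whose products bind BMF and BIM, had ratios of 1.15 (1.08 to 1.23) and 1.13 (1.07 to 1.19). Casp8, the protease that cleaves BID, had one of 0.887 (0.812 to 0.970), and the 14-3-3 gene Ywhah one of 1.13 (1.098 to 1.17). With nanocages against HU, 4 of the 16 were above and 1 was below counting error, beside 8.32% and 7.69% of all genes. Of the other BCL2 relatives, 6 were measured, with 1 above and 2 below counting error in HU against control, beside the same 18.5% and 19.8%. With nanocages against HU, 0 of the 6 were outside it in either direction. Their ratios in HU were 0.877 for Bnip1 (0.771 to 0.999), 1.09 for Bnip2 (1.03 to 1.16), 0.921 for Bcl2l13 (0.857 to 0.990) and 0.940 for Bnip3 (0.827 to 1.07).

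**Figure D4:**
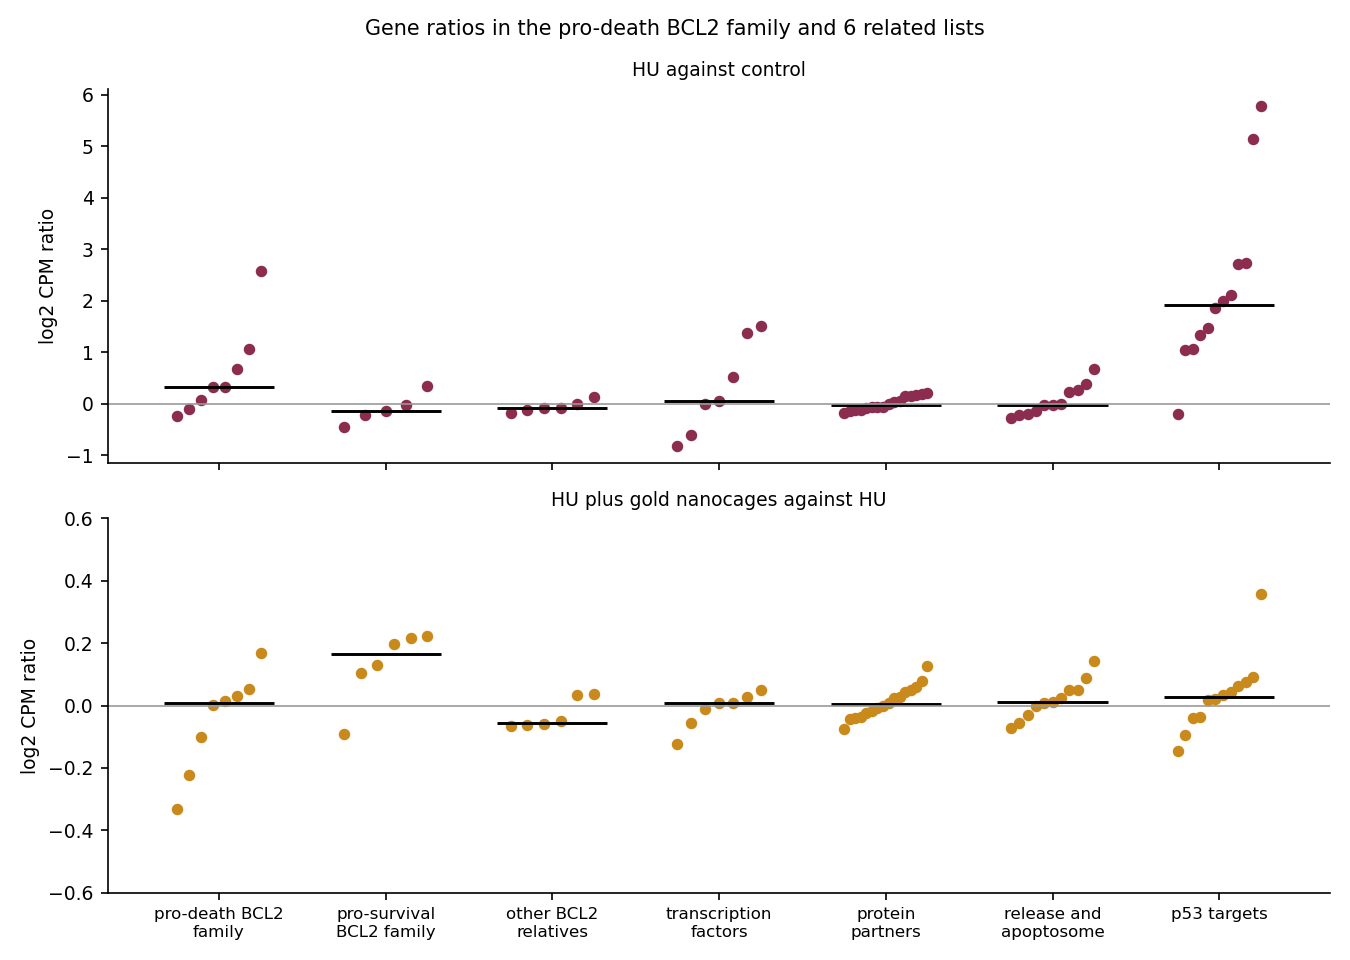
Log2 CPM ratio of every gene with at least 1 FPKM in either library, for the pro-death members and 6 related lists, with HU against control above and HU plus gold nanocages against HU below (narrower axis). Points are genes and black lines are medians. The p53 targets have a median of 1.92 in the upper plot and 0.03 in the lower, and the pro-death members medians of 0.32 and 0.01.

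The genes most like each member past 2-fold were sought by the distance between their pairs of log2 ratios over control, 1 for each HU library. The search ran over 7994 genes and rests on 3 libraries. For Bbc3 they were Mybl1 (distance 0.09), Enc1 (0.10), Cdkn1a (0.15), Ddias (0.16) and Mdm2 (0.21). Mybl1, a MYB family transcription factor gene, was at 15.3 FPKM with nanocages, 14.3 FPKM in HU and 2.54 FPKM in control. For Pmaip1 they were Fbxw9 (0.04), the antisense transcript Gm14286 (0.08), Ccne2 (0.10), Pqlc3 (0.10) and Zfp385a (0.13). Counting error does not enter these distances. Gm14286 had only 59, 53 and 20 reads with nanocages, in HU and in control, and Fbxw9 had 317, 294 and 106. Ccne2, which encodes cyclin E2, was at 33.9 FPKM with nanocages, 31.5 FPKM in HU and 14.1 FPKM in control.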

How the data were processed

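RNA of 3 RAW 264.7 cultures was sequenced, 1 library per condition. The authors deposited a table of whole-number read counts per gene, which are not normalized, and of FPKM. Each deposited FPKM equals the count per kilobase of exonic gene size (another kind of value, a length in bases, per the file headers) and scaled to the summed count of the library, within rounding, for 100% of genes. Per the submitters' processing notes, the tools were HISAT2 2.0.1, HTSeq 0.6.1, SAMtools 0.1.18, DESeq, cutadapt and bcl2fastq 2.17.1.14, with mm10. Their settings, the annotation release and the strand option are not stated there.

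Symbols came from the table, with the identifier of most reads for a symbol on several rows. Each member had 1 row. Coordinates, overlaps and biotypes came from GENCODE M21, which holds 98.0% of identifiers. CPM ratios with exact 95% intervals were computed in Python 3.11.15 with SciPy 1.17.1 and run on simulated counts. Those counts held Poisson error only, so they say nothing of the spread between cultures. Genes with at least 1 FPKM in either library were tested, and called at a ratio of at least 2 or at most 0.5, or where the interval excluded 1. Each read stood for 0.0536, 0.0499 and 0.0667 CPM in HU plus gold nanocages, HU and control. Alternatives were edgeR 4.0.16 TMM factors, DESeq2 1.42.0 size factors, pseudocounts of 0.1, 1 and 5 FPKM, other FPKM minimums, a fold of 1.5 and protein-coding genes only. No count model was run.

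All 10 members are named, and of each related list the 4 genes with the largest log2 ratio in HU against control, in either direction. Some of the genes so chosen are not reported here. For each member past 2-fold, the 5 most alike genes with at least 5 FPKM in some library are named too. Members and lists were chosen with earlier results of these data known.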

Additional observations from a re-analysis of the deposited data

How the results depend on the processing

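The 2 members called at 2-fold in HU against control, Bbc3 and Pmaip1, were still past it with edgeR TMM or DESeq2 size factors and with pseudocounts of 0.1 and 1 FPKM. With a pseudocount of 5 FPKM 1 member was called, Bbc3, since Pmaip1 then fell short. The other minimums, the lower fold and the restriction to protein-coding genes could not end either call. Without a filter on low values Bik was called too, at 1 read in HU against 0 in control, which made 3 members higher. By the same read, 1 member was at least 2-fold lower in HU plus gold nanocages against HU, which was Bik at 0 against 1 read. With either library scaling, edgeR TMM or DESeq2 size factors, every log2 ratio of the 8 measured members stayed inside its counting interval. Of 120 such log2 ratios under other scalings and pseudocounts, 6 left it, all with a pseudocount of 5 FPKM, for Bbc3 (2.15 in both comparisons with control), Pmaip1 and Bcl2l11. The counts over all genes moved more. In HU against control, genes at least 2-fold higher and lower numbered 168 and 111 with a pseudocount of 1 FPKM, 41 and 23 with 5 FPKM, 2926 and 1907 without the filter, 101 and 56 at 5 FPKM or more, and 158 and 66 among protein-coding genes, against 313 and 199 as reported. At 1.5-fold they were 606 and 447. In HU plus gold nanocages against HU the same settings gave 64 and 69, 4 and 2, 2271 and 2067, 13 and 16, 13 and 10, and 244 and 233, against 129 and 135. In HU plus gold nanocages against control they gave 179 and 115, 45 and 19, 2953 and 1833, 109 and 61, 156 and 66, and 707 and 454, against 328 and 204. A pseudocount draws ratios towards 1, and a higher minimum or a restriction by biotype leaves fewer genes to test, by construction. No replicate could be left out with 1 library per condition. No paired analysis was possible because each condition is 1 library. Depth limits Bik and Hrk, whose counts of 0 or 1 give no ratio.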
